A study of Mus musculus with 20 samples.

Results

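The 38 Hox genes described here were listed by symbol, not chosen by a measured value, and all 38 were found among the 21631 protein-coding genes of chromosomes 1 to 19 and X. They lie in 4 clusters: 10 genes in HoxA on chromosome 6, 10 in HoxB on chromosome 11, 9 in HoxC on chromosome 15 and 9 in HoxD on chromosome 2. The data are CUT&RUN peak lists, in which an antibody directs a nuclease to its target in intact nuclei and the released DNA is sequenced. All groups share 1 genotype, Sun1 f/f with Emx1Cre (+), and 1 age, 8 weeks, and their nuclei were sorted from whole brain. Sun1 is a nuclear envelope protein, and Emx1, whose promoter drives the Cre recombinase, encodes a homeodomain protein made in the developing cortex. Antibodies against H3K4me1, H3K4me3, H3K27ac, H3K27me3 and the transcription factor EGR1 were each used on nuclei labelled excitatory and nuclei labelled inhibitory, with 2 libraries in each of the 10 groups and 20 in all. The sources used here do not give the gate that separated the types, or say if a group's libraries are from separate animals. The p-values below therefore measure only the spread between these libraries, which may be technical.

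Hox genes encode homeodomain transcription factors that give positional identity along the head-to-tail axis. In each cluster the genes are numbered by paralog group, and low numbers lie at the 3′ end of the cluster and are used in the hindbrain, while high numbers lie at the 5′ end and are used in the caudal spinal cord, the limbs and the trunk. The adult forebrain develops ahead of the Hox-expressing territory, and the clusters are a classic target of Polycomb, whose PRC2 complex deposits H3K27me3 at silenced genes. H3K4me3 marks CpG-rich promoters, H3K4me1 marks enhancers and the edges of promoters, and H3K27ac marks active promoters and enhancers. EGR1 is a zinc-finger factor induced by neuronal activity that binds GC-rich sites.

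The promoter sequences that the results turn on were read from a RefSeq table of GRCm38.p6, the assembly behind mm10, as the 250 bases before the start site. The table held 24 promoters for 22 of the 38 genes. Each sequence is given 5′ to 3′ on the strand of the gene, and the capitals mark CpG dinucleotides. Hoxd1 (chr2:74762730-74762979, plus strand) is shown because an H3K4me3 peak lay on it in all 4 libraries. Hoxd9 (chr2:74697513-74697762, plus strand) is the only Hox gene called for H3K4me3, a call that was not stable. Hoxd11 (chr2:74679308-74679557, plus strand) carried H3K4me1 in both libraries labelled inhibitory and in neither labelled excitatory. Hoxa7 (chr6:52218574-52218823, minus strand) had the largest tested H3K4me1 difference that passed, and Hoxa13 (chr6:52260881-52261130, minus strand) holds an EGR1-type motif.
Hoxd1: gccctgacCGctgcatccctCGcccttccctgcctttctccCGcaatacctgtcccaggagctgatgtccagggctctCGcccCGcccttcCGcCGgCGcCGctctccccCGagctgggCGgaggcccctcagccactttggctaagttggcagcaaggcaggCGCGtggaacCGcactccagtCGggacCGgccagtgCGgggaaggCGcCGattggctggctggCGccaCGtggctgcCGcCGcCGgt
Hoxd9: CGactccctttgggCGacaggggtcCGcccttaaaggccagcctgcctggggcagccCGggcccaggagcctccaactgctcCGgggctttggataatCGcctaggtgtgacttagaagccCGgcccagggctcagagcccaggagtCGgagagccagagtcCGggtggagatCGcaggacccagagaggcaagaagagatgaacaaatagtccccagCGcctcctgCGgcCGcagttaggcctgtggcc
Hoxd11: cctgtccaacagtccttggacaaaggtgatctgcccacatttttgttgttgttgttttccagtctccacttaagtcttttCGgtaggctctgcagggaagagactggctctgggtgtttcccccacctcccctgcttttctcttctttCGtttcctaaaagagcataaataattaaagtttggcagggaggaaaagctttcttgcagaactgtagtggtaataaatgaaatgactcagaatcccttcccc
Hoxa7: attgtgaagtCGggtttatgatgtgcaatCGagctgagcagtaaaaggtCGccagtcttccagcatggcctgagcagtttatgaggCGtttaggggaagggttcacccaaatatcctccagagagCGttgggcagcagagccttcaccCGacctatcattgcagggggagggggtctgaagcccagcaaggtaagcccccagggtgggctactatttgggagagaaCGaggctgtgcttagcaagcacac
Hoxa13: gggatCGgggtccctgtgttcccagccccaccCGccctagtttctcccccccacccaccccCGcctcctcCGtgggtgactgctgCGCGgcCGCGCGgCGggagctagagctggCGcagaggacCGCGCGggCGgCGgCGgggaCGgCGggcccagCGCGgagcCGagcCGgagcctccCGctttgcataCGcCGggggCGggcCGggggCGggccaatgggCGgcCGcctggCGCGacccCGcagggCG
Their CpG content ran from 2 in the Hoxd11 sequence through 7 in Hoxa7, 13 in Hoxd9 and 24 in Hoxd1 to 35 in Hoxa13, with GC contents of 44.8, 54.8, 65.2, 71.6 and 80%.

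Hox promoters as a group were about as rich in CpG as other promoters. The first promoters of the 22 genes had a median of 12 CpG and 56.8% GC, beside 10 CpG and 55.6% GC over 17274 protein-coding genes. The EGR1-type motif GCGNGGGCG, searched on both strands, was present in 2 of 22 Hox promoters (9.09%), those of Hoxa13 and Hoxb8, and in 6.33% of all promoters. In Hoxa13 it began at base 126 of the printed sequence. The HOX-PBX motif TGATTNAT was present in 1 of 22, the promoter of Hoxa2, and in 2.74% of all promoters. A second Hoxd11 promoter (chr2:74682073-74682322), neither printed nor among the 22, also held it. That promoter had 20 CpG and 60.4% GC, and H3K4me1 over 215 and 92 bases in the inhibitory libraries and 0 in the excitatory ones. No EGR1 peak touched any of these promoters in any library, while 47.8 to 52.7% of all promoters had one. A match says only that the letters are present.

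Every number called coverage below is the percent of bases in a window that lie under a deposited peak. For H3K27me3, H3K4me1 and H3K27ac the window was the gene with 5 kb on both sides, and for H3K4me3 and EGR1 it was the stretch within 2 kb of either gene end. Neighbouring Hox genes are close together and Hoxa3, Hoxb3, Hoxd3 and Hoxc4 have long gene models that overlap other members, so windows share bases and members are not independent. Peak lists ran from 49899 to 321846 peaks per library. The lists reached unadjusted p-values of 0.0988 to 0.0999 for H3K27me3 and H3K4me1, 0.0483 to 0.0498 for H3K4me3 and H3K27ac, and 0.00481 to 0.00491 for EGR1. The depth of each library is unknown, because the lists hold no read counts.

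The labels of the libraries were compared with marker genes. With EGR1 the labels and the markers went the same way: the summed coverage of 7 excitatory markers was 89.5 and 80.3 in the libraries labelled excitatory and 18.2 and 26.7 in those labelled inhibitory, and that of 8 inhibitory markers was 7.95 and 5.63 against 32.6 and 41.4. With H3K27ac the inhibitory markers went against the labels, with sums of 41.8 and 46.4 in libraries labelled excitatory and 1.19 and 0.961 in those labelled inhibitory. Its excitatory markers overlapped, at 40.6 and 58.6 against 34.8 and 44.2. Its sums for 5 cerebellar granule neuron markers were 14.2 and 29.5 against 49.4 and 41.9. With H3K27me3 the excitatory markers summed to 141 and 136 against 171 and 178. The inhibitory ones summed to 220 and 206 against 230 and 234 with that antibody. Over all genes, both excitatory libraries were higher at 32.8% with H3K4me1 and 18.6% with H3K4me3, and both inhibitory ones at 12.8 and 14.7%. The counts of markers below are to be read beside these shares. With H3K4me1 the 7 excitatory markers followed the labels, with sums of 147 and 177 against 110 and 105 and both excitatory libraries higher at 6 of 7. The sums of the 8 inhibitory markers overlapped, at 122 and 178 against 110 and 130, with 3 higher in both excitatory and 2 in both inhibitory libraries. Of these, 1 was called, Gad1, which makes the inhibitory transmitter GABA, with 21.2 and 25.4% in libraries labelled excitatory against 4.42 and 7.40% (limma, adjusted p = 0.0496). For H3K4me3, 5 of 5 cerebellar granule neuron markers were higher in both libraries labelled inhibitory, with sums of 0 and 59.7 against 119 and 158. The fit called 3 of these 5, higher in inhibitory libraries, beside 1.22% of all genes tested. With this antibody the sums of the 7 excitatory markers overlapped, at 69.8 and 146 against 122 and 134. Of these, 0 were higher in both excitatory and 2 in both inhibitory libraries. The fit called 1 of 6 tested, higher in inhibitory libraries, beside 1.22% of all genes tested. The 8 inhibitory markers summed to 73.0 and 84.9 against 84.1 and 98.5, with 2 higher in both excitatory and 4 in both inhibitory libraries. With H3K4me1 the granule sums were 65.4 and 106 against 127 and 114, with 2 of 5 higher in both inhibitory libraries. The sums of 6 hindbrain and spinal cord markers were 56.5 and 53.7 against 84.9 and 78.5. Of these 6, 2 were higher in both excitatory and 2 in both inhibitory libraries. The gap lay at Tlx3, given below, and the sums of the other markers overlapped. The part of cell makeup in the Hox results was not tested, and excitatory and inhibitory below mean only how the libraries are labelled.

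H3K27me3 peaks were spread along all 4 clusters in both neuron types, at levels that overlapped. Of the bases in the clusters, peaks covered 26.2 and 30.0% in excitatory libraries and 28.0 and 28.0% in inhibitory ones, where a cluster runs from its first to its last listed gene with 5 kb on both sides. The groups overlapped, with means of 28.1 ± 2.66% and 28.0 ± 0.0400% (SD, n = 2 each). This was 3.79, 3.66, 2.66 and 3.03 times the coverage of the genome in the same libraries. The flanks, stretches of the same length on each side, were also well covered, at 21.1 and 23.4% in excitatory and 26.1 and 24.6% in inhibitory libraries. HoxD stood out most from its flanks, which had 14.1 and 15.7% in excitatory and 20.3 and 19.5% in inhibitory libraries against 25.6, 26.99, 24.7 and 28.3% in the cluster.

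**Figure D1:**
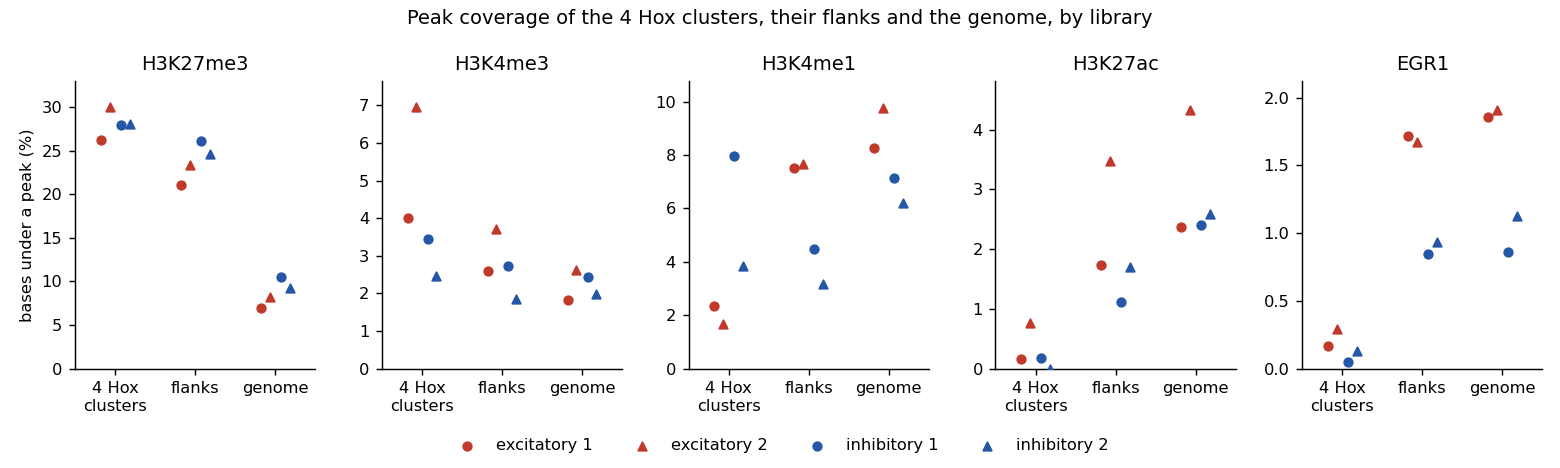
Percent of bases under a peak (y axis, linear from 0, each panel with its own scale) for each antibody in the 4 Hox clusters together, in their flanks and in the genome; each point is 1 library, circles replicate 1 and triangles replicate 2. H3K27me3 was at 26.2 to 30.0% in the clusters and 6.91 to 10.5% in the genome, while H3K27ac and EGR1 stayed below 1% in the clusters.

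All 38 Hox genes had H3K27me3 in all 4 libraries, as 46.4% of all genes did, while 83.9% of all genes had it in at least 1 library. The median gene had 26.6, 29.0, 28.6 and 27.7% of its window covered, in the order excitatory 1, excitatory 2, inhibitory 1 and inhibitory 2, where the median of all genes had 1.53, 1.60, 4.95 and 2.84%. In HoxA the highest member was Hoxa11, a gene of the forearm skeleton and the uterus, with 40.5 and 45.4% in excitatory and 30.0 and 34.0% in inhibitory libraries. The lowest was Hoxa7, with 39.3, 13.05, 20.2 and 16.4%. In HoxB, Hoxb4 was highest with 23.6, 33.2, 38.6 and 33.9%, and Hoxb7 was lowest with 16.1, 28.2, 23.1 and 21.2%. At Hoxa11 and Hoxb4 the types did not overlap, and at Hoxa7 and Hoxb7 they did. In HoxC the extremes were Hoxc13 (24.1, 42.8, 25.6 and 28.6%) and Hoxc11 (15.3, 18.1, 40.9 and 15.5%). In HoxD they were Hoxd9 (29.0, 47.0, 34.6 and 36.6%) and Hoxd4 (15.7, 32.0, 20.8 and 18.5%).

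No Hox gene passed the test for H3K27me3 between the types. limma, fitted over 15438 genes with Benjamini-Hochberg adjustment, called 0 of them, and it called 0.00% of all genes tested. At an unadjusted p under 0.05 there were 2 Hox genes, Hoxa4 and Hoxa11, named after their values were seen, where 28.9% of all genes tested had such a p. Both excitatory libraries lay above both inhibitory ones at 6 of 38 Hox genes (15.8%) and at 10.1% of all genes, and the opposite held at 4 of 38 (10.5%) and at 34.8% of all genes. The smallest p that an exact permutation of 2 against 2 libraries can give is 0.333, so no single gene can pass by that test.

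The individual H3K27me3 peaks in the clusters were weak and scattered. There were 154, 147, 149 and 154 peaks, with a median fold enrichment, as the authors' lists give it, of 1.53 to 1.57. None had a q-value under 0.05, and only 1 reached a -log10 p of 3, a peak over Hoxa13 at chr6:52259193-52259639 in the first excitatory library with a fold of 2.303. Whole lists were also weak, with at most 0.00990% of H3K27me3 peaks under a q of 0.05. Their positions recurred in a larger share than in the genome, where coverage is also lower: of 191 merged H3K27me3 regions in the clusters, 72 (37.7%) had a peak in all 4 libraries, against 11.1% of 558413 regions in the genome. The Jaccard index, the share of covered bases that 2 libraries have in common, was 0.313 within excitatory, 0.300 within inhibitory and 0.300 on average between types in the clusters. In the genome these values were 0.209, 0.255 and 0.171.

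H3K27me3 did not end where the genes end. The 74.7 kb between Hoxb13 and Hoxb9, which hold no listed gene, had 21.7, 29.8, 25.4 and 31.1% of their bases covered. The same stretch had 0 to 2.005% H3K4me1, 0 to 1.29% H3K4me3 and no H3K27ac or EGR1 peak in any library. Of 107 bins of 5 kb over the 4 clusters, 101 to 105 had some H3K27me3 in each library.

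**Figure D2:**
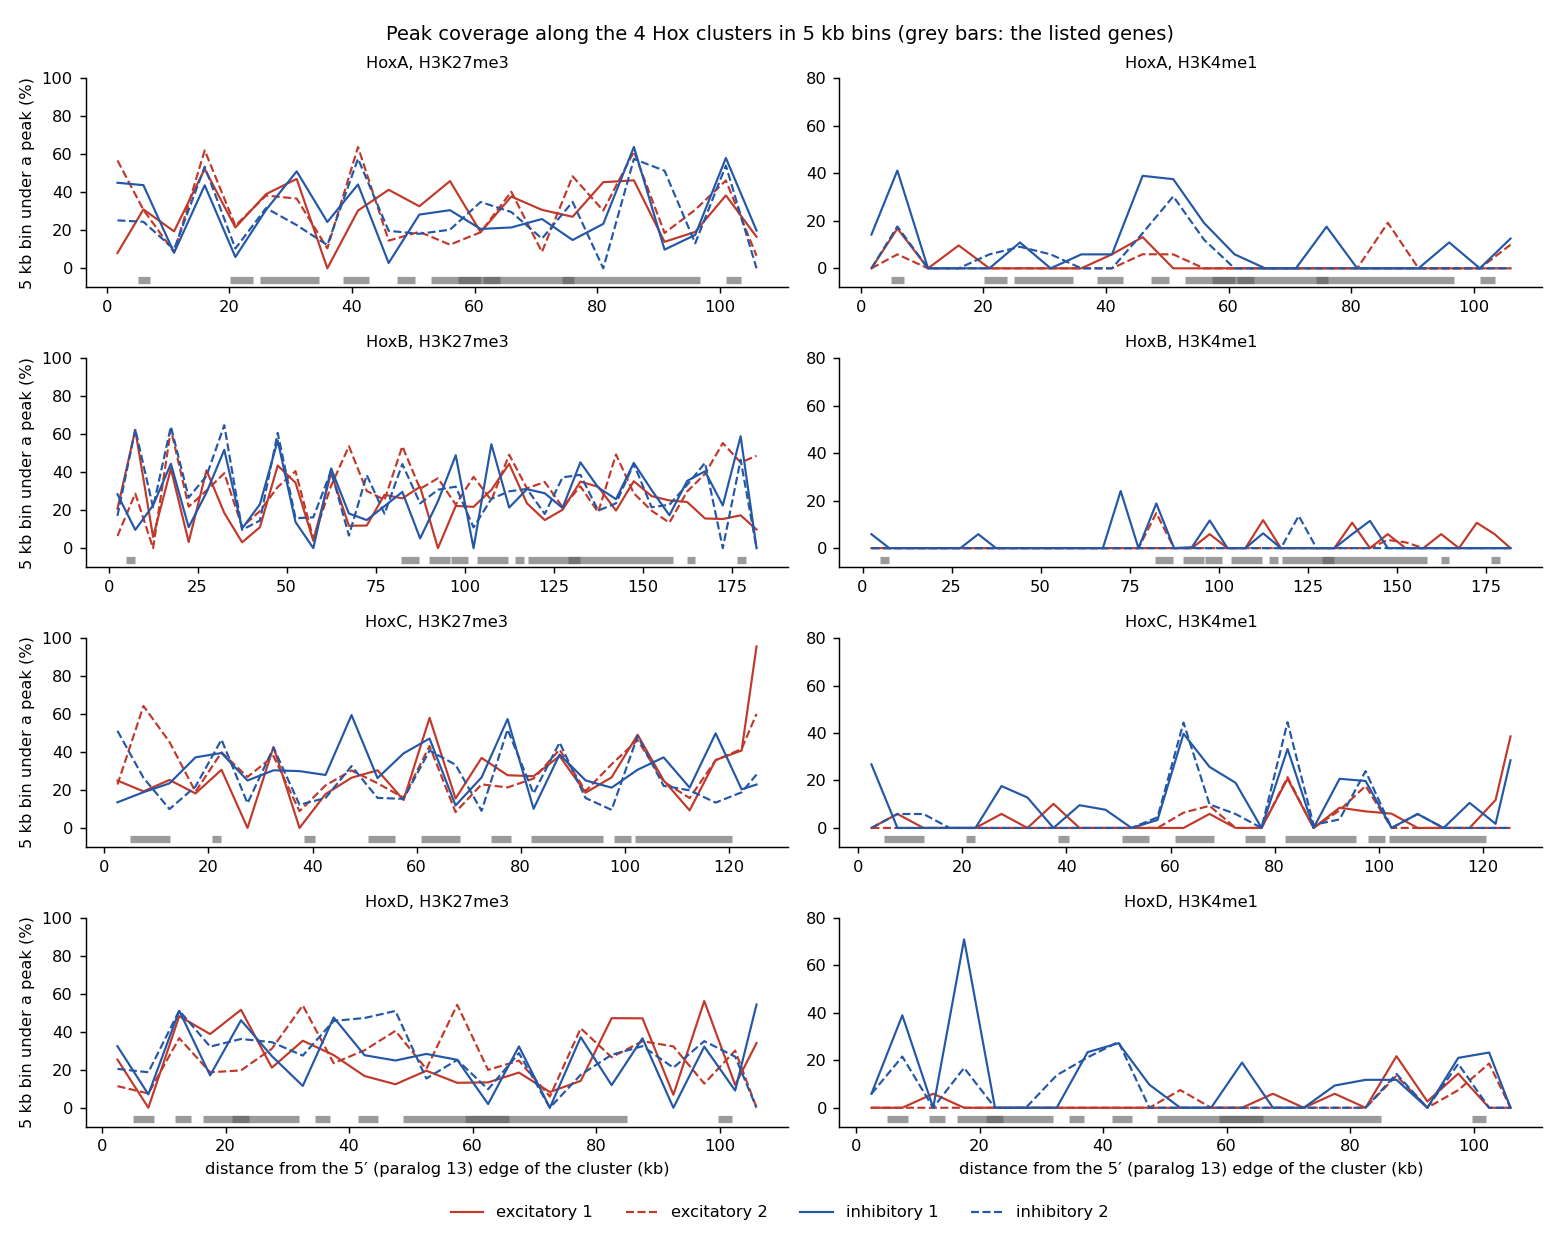
Percent of each 5 kb bin under a peak (y axis) by distance in kb from the 5′ edge of each cluster (x axis), for H3K27me3 on the left and H3K4me1 on the right; each line is 1 library, grey bars are the listed genes and the last bin of a cluster is shorter. H3K27me3 peaks touch 101 to 105 of the 107 bins in each library. H3K4me1 reaches 70.9% in the first inhibitory library and 16.8% in the second in 1 bin of the 5′ part of HoxD.

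H3K4me1 gave the most calls, and they lay in the middle and 5′ parts of HoxA, HoxC and HoxD. It was higher in the inhibitory libraries at 7 Hox genes: Hoxa7, Hoxc9, Hoxc10, Hoxd8, Hoxd9, Hoxd10 and Hoxd13. No Hox gene was called in the other direction. limma called 7 of the 32 Hox genes tested, while it called 4.06% of 18017 genes tested over the genome and 1.53% in this direction. Of the 7, Hoxc10, Hoxd8, Hoxd9 and Hoxd10 passed the filter through their inhibitory libraries alone, so their direction was fixed and the count of 7 is a description. At an unadjusted p under 0.05 there were 20 of 32, beside 25.9% of all genes tested. The median difference over the 32 was -7.33 percentage points, excitatory minus inhibitory on the quantile-normalized scale, and that of all genes tested was -0.34. A peak touched the window in at least 1 library at 37 of 38 Hox genes, against 88.0% of all genes, and in all 4 libraries at 11, against 74.0%. The members with too few covered libraries to be tested were Hoxa4, Hoxa5, Hoxb1, Hoxb2, Hoxb4 and Hoxb13, and Hoxa10, not called, also passed the filter through its inhibitory libraries alone.

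Hoxa7, a trunk patterning gene at chr6:52215623-52218573, had 5.08 and 4.56% in excitatory libraries against 34.0 and 22.1% in inhibitory ones. Both inhibitory values were far above both excitatory ones, and the difference was -25.02 ± 4.01 points (SE, limma, adjusted p = 0.0421). Hoxc9, which sets thoracic identity in motor neurons (chr15:102977032-102984444), had 1.69 and 4.53% against 23.5 and 16.9%. The groups did not overlap, and the difference was -19.30 ± 2.59 points (SE, limma, adjusted p = 0.0401).

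Hoxd10 (chr2:74684273-74695106), a gene of lumbar motor neurons, had no H3K4me1 peak in either excitatory library and 19.01 and 12.4% in the inhibitory libraries. Hoxd9 (chr2:74697763-74700208) and Hoxd8 (chr2:74704615-74707933) were likewise at 0 in both excitatory libraries, with 13.1 and 14.3% and with 16.1 and 10.4% in the inhibitory libraries. Hoxc10 (chr15:102966796-102971898), another lumbar gene, had 0 and 0% against 8.73 and 6.57%. These 4 entered the test only through their inhibitory values, so they could only differ in this direction. Hoxd13 (chr2:74668225-74671603), needed for digits, had 2.21 and 0% against 16.8 and 10.3%. The differences of the other 5 called genes lay between -17.35 and -9.40 points, each with a limma adjusted p of 0.0401.

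Hoxd12, the largest H3K4me1 difference that did not pass, had 2.32 and 0% against 39.9 and 15.1%, a difference of -28.38 ± 7.11 points (SE, limma, adjusted p = 0.0810). Its inhibitory libraries lay further apart than those of the called genes. In HoxC, Hoxc6, which acts in forelimb-level motor neurons, had the highest mean with 7.66, 9.83, 15.6 and 15.5%. Hoxc5 beside it had 8.02, 9.36, 15.1 and 10.3%, and both carried H3K4me1 in all 4 libraries. The highest HoxB member was Hoxb9, with 0, 4.83, 6.16 and 0%. The lowest members by mean were Hoxa5 (1.31%), Hoxb4 (0%), Hoxc12 (1.25%) and Hoxd4 (1.81%).

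Over all members, both inhibitory libraries lay above both excitatory ones at 18 of 38 Hox genes (47.4%), against 12.8% of all genes. The opposite order held at 0 of 38, against 32.8% of all genes. The 7 calls were not stable: no Hox gene was called with the same number of strongest peaks in each library, without the filter on coverage, or without the first excitatory or either inhibitory library, and only Hoxc9 was called without the second excitatory library. In windows at the gene ends 3 were called, Hoxa7, Hoxc9 and Hoxd13. The count of non-overlapping genes was 23 of 38 with equal peak numbers, where 33.6% of all genes had this order, and 15 of 38 in windows at the gene ends, against 12.98% of all genes. Without quantile normalization the same 7 genes were called, and the split of called genes over the genome moved from 456 higher in excitatory and 276 in inhibitory to 1043 and 168.

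**Figure D3:**
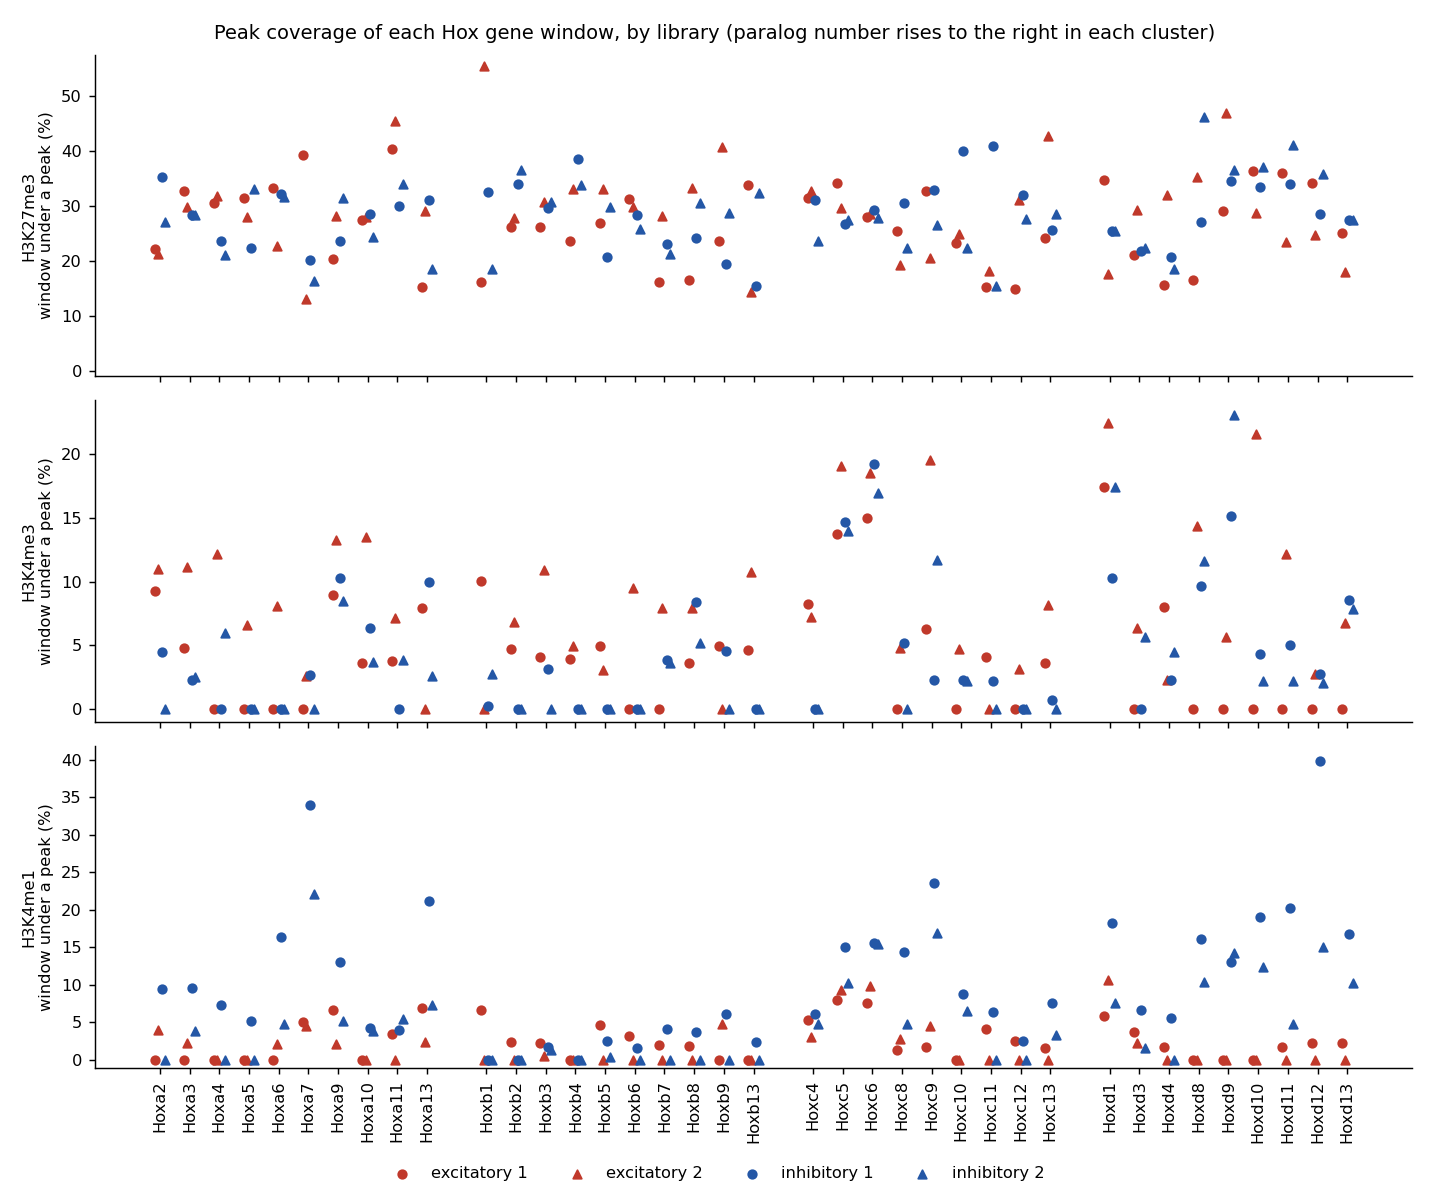
Percent of each Hox gene window under a peak (y axis) for H3K27me3, H3K4me3 and H3K4me1 (from top to bottom); genes run from low to high paralog number in HoxA, HoxB, HoxC and HoxD, and each point is 1 library. The inhibitory points for H3K4me1 stand above the excitatory ones at Hoxa7, Hoxc9 and from Hoxd8 to Hoxd13, while HoxB stays below 7% in every library.

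The H3K4me1 gap between the types was wider at the middle and 5′ paralogs than at the 3′ ones. Over the 11 genes of paralogs 1 to 4, mean H3K4me1 coverage was 2.53 and 2.08% in excitatory and 5.87 and 1.75% in inhibitory libraries, and the groups overlapped. Over the 11 genes of paralogs 5 to 8 it was 3.08 and 2.61% against 11.7 and 6.21%. Over the 16 genes of paralogs 9 to 13 it was 2.09 and 0.868% against 13.05 and 6.59%. Both inhibitory libraries lay above both excitatory ones at 1 of 11, 6 of 11 and 11 of 16 of these genes, beside 12.8% of all genes. The 5 genes of HoxD paralogs 9 to 13 had the widest gap, 1.24 and 0% against 21.8 and 11.4%. In HoxA the widest gap was at paralogs 5 to 8, with 1.69 and 2.23% against 18.6 and 8.99%. At HoxA paralogs 9 to 13 the values were 4.29 and 1.13% against 10.6 and 5.45%. None of the 10 HoxB genes had both inhibitory libraries above both excitatory ones, and Hoxb4 had no H3K4me1 peak in any library. HoxB holds 4 of the 11 genes of paralogs 1 to 4 and 2 of the 16 of paralogs 9 to 13.

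**Figure D4:**
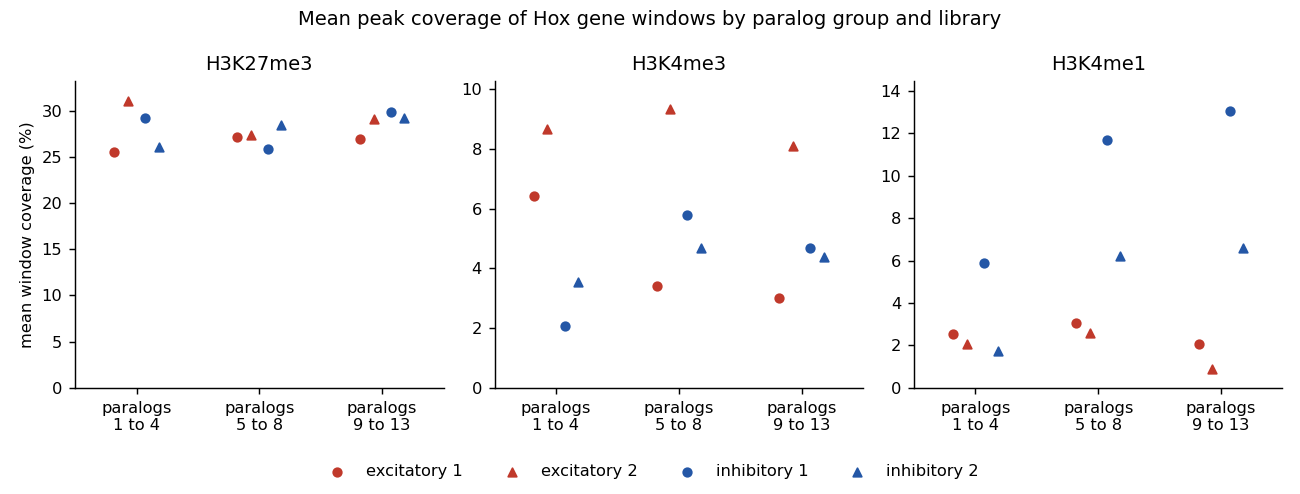
Mean window coverage in percent (y axis, linear from 0, each panel with its own scale) over the Hox genes of paralogs 1 to 4, 5 to 8 and 9 to 13 (x axis), for H3K27me3, H3K4me3 and H3K4me1; each point is 1 library. H3K27me3 stays between 25.5 and 31.1% in every class, and the H3K4me1 gap between types, over the 4 clusters together, is widest for paralogs 9 to 13.

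There were 9 H3K4me1 regions in the clusters with a peak in both inhibitory and in no excitatory library, out of 87 merged regions (10.3%, against 2.84% in the genome). No region had the reverse pattern, which 13.1% of regions in the genome had. In HoxD there were 5: chr2:74667330-74667657 before Hoxd13, chr2:74671599-74673127 at its far end, chr2:74678742-74682524 over the start of Hoxd11, chr2:74697539-74699549 over the start of Hoxd9 and chr2:74704750-74706565 inside Hoxd8. The Hoxd11 region lay in the windows of Hoxd12, Hoxd11 and Hoxd10, and the Hoxd9 region in those of Hoxd10 and Hoxd9, so these genes share sites. It covered 250 and 107 of the 250 bases of the Hoxd11 promoter printed above in the inhibitory libraries. In HoxA there were 3, over Hoxa7 (chr6:52215791-52218453), Hoxa10 (chr6:52240305-52240889) and Hoxa13 (chr6:52259657-52260461). The Hoxa7 region ended short of the printed promoter, which had no H3K4me1 in any library. HoxC had 1, over Hoxc8 (chr15:102990496-102991035). None of the 9 lay in the window of Hoxc9 or Hoxc10, which were among the 7 called genes.

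The order of the types in the whole clusters was the opposite of that in their flanks. H3K4me1 covered 2.34 and 1.68% of the 4 clusters in excitatory and 7.97 and 3.85% in inhibitory libraries, means of 2.01 ± 0.468% and 5.91 ± 2.91% (SD, n = 2 each). The flanks had 7.51 and 7.67% against 4.48 and 3.17%, so excitatory libraries were the lower in the clusters and the higher outside them. In HoxB the groups overlapped, with 1.54 and 0.561% in excitatory and 2.46 and 0.370% in inhibitory libraries. No H3K4me1 peak in the clusters had a q-value under 0.05 or a -log10 p of 3 in any library, and at that cut no Hox gene could be tested.

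Some homeobox genes outside the clusters were also called. Of 18 such genes, 16 were tested for H3K4me1, and 7 were called, all higher in the inhibitory libraries, beside 1.53% of all genes tested, among them En1, Tlx3, Msx1, Lhx5, Gsx1 and Evx1. Tlx3, which specifies excitatory neurons of the dorsal spinal cord and hindbrain, had 5.76 and 5.22% against 31.7 and 44.0%. The median difference over the 16 was -10.62 points, and both inhibitory libraries were above both excitatory ones at 11 of 18. With equal peak numbers 0 genes of the genome were called for H3K4me1, so these calls were lost too. For H3K4me3, 5 of 18 were called, also higher in the inhibitory libraries, beside 1.22% of all genes tested, among them Tlx3, Lhx1, Gsx1 and Irx3. Of the 16 nearest neighbours of the clusters, 15 were tested for H3K4me1 and 2 were called, beside 4.06% of all genes tested: Evx1, next to HoxA, was higher in inhibitory libraries (4.47 and 0% against 10.4 and 8.07%), and Calcoco1, next to HoxC, in excitatory libraries (24.7 and 29.4% against 12.7 and 6.999%).

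H3K4me3 was sparse at the Hox genes, and 1 of 34 tested, Hoxd9, was called between types, near the share called over all genes. Hoxd9 had 0 and 5.68% of its end windows covered in excitatory and 15.2 and 23.1% in inhibitory libraries. The groups did not overlap, and the difference was -17.21 ± 2.98 points (SE, limma, adjusted p = 0.0390). It was the only call among 34 Hox genes tested, where limma called 3.02% of 15685 genes tested, 1.80% higher in excitatory and 1.22% higher in inhibitory libraries. At the Hox genes 5 of 34 had an unadjusted p under 0.05, beside 17.6% of all genes tested. All 38 had H3K4me3 in at least 1 library, against 82.1% of all genes, and 9 had it in all 4, against 62.4%. Hoxa5, Hoxa6, Hoxb6 and Hoxc12 could not be tested, and Hoxb2, Hoxb4, Hoxb5, Hoxb13 and Hoxc4 passed the filter through their excitatory libraries alone. The call was lost without quantile normalization, without the filter on coverage, with equal peak numbers, with peaks of a -log10 p of at least 3, in windows over the whole gene, and without the second excitatory or either inhibitory library. Without the first excitatory library Hoxd9 was still called, and Hoxd10 was called in the opposite direction, higher in excitatory. That direction at Hoxd10 rested on the second excitatory library alone.

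Over HoxD as a whole H3K4me3 overlapped between types, at 2.66 and 8.91% in excitatory and 5.72 and 5.18% in inhibitory libraries. The 4 H3K4me3 regions found in both inhibitory and no excitatory library (1.67% of 239, against 3.30% of regions in the genome) lay in HoxD: 2 past the end of Hoxd13 (chr2:74672104-74672648 and chr2:74672805-74673151) and 2 inside Hoxd9 (chr2:74698503-74699058 and chr2:74699226-74699512). These overlap H3K4me1 regions that were also in the inhibitory libraries only. A peak in the second inhibitory library also covered 216 of the 250 printed bases of the Hoxd9 promoter. Hoxd13 had the same order, with 0 and 6.79% against 8.55 and 7.89%, and was not called. These were the 2 Hox genes whose inhibitory libraries both lay above the excitatory ones, 5.26% of 38 against 14.7% of all genes.

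At 3′ genes the order was the opposite, and no gene passed the test in the end windows. In windows over the whole gene Hoxa2 was called, higher in excitatory libraries. Both excitatory libraries lay above both inhibitory ones at 10 of 38 Hox genes (26.3%), against 18.6% of all genes, and 7 of these 10 were among the 11 genes of paralogs 1 to 4. Hoxa2, which patterns the hindbrain, had 9.29 and 10.99% against 4.46 and 0%. Hoxb2 had 4.73 and 6.82% against 0 and 0%, and Hoxc4 had 8.29 and 7.25% against 0 and 0%. Over paralogs 1 to 4 the means were 6.43 and 8.67% against 2.07 and 3.54%, and over paralogs 9 to 13 they were 2.99 and 8.08% against 4.67 and 4.38%. With equal peak numbers 6 of 38 genes had this order, against 17.8% of all genes.

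A few H3K4me3 sites were present in every library. There were 4 of them among 239 regions: Hoxd1 (chr2:74761580-74763499), Hoxc6 (chr15:102998965-103000237), Hoxc5 (chr15:103013135-103014709) and a site beyond the 3′ end of Hoxa9 (chr6:52221202-52222011). The highest member of each cluster was Hoxd1 (17.4, 22.5, 10.3 and 17.4%), Hoxc6 (15, 18.6, 19.3 and 17.0%), Hoxa9 (8.93, 13.3, 10.3 and 8.49%) and Hoxb8 (3.64, 7.91, 8.44 and 5.23%). The lowest were Hoxd12, Hoxc12, Hoxa7 and Hoxb5, with means over the 4 libraries of 1.89, 0.791, 1.32 and 2.01%. Peaks covered 250, 250, 35 and 250 of the 250 printed bases of the Hoxd1 promoter. Only 1 to 4 of 22 Hox promoters had any H3K4me3 in a library, where 56.1 to 60.0% of all promoters did. Over the clusters as a whole H3K4me3 covered 4.01 and 6.96% in excitatory and 3.44 and 2.46% in inhibitory libraries, which did not overlap but were spread as widely within excitatory as between types.

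H3K4me3 and H3K27me3 occurred together at the same gene end at 15 of 38 Hox genes in each type. A gene was counted when both libraries of the type had both marks within 2 kb of 1 end. This was 39.5% of the Hox genes, against 15.9% of all genes in excitatory and 20.4% in inhibitory libraries. Both types shared 6 genes, Hoxa3, Hoxa9, Hoxc5, Hoxc6, Hoxc9 and Hoxd1. Those found in excitatory libraries alone were Hoxa2, Hoxa10, Hoxa11, Hoxb2, Hoxb3, Hoxb5, Hoxb13, Hoxc4 and Hoxd4, and those in inhibitory libraries alone were Hoxa13, Hoxb8, Hoxc10 and the run from Hoxd8 to Hoxd13. The difference between these 2 lists was not tested, and it rests partly on 1 sparse library. From Hoxd8 to Hoxd13 the first excitatory library had no H3K4me3 in the end windows, while the second had some at every gene. Without replicate 1 the excitatory count was 33 of 38, against 25.6% of all genes. Taken singly, with or without the other mark, H3K27me3 was at an end of 35 of 38 Hox genes in excitatory and 38 of 38 in inhibitory libraries, against 33.8 and 39.9% of all genes. H3K4me3 was at an end of 15 and 16, against 65.6 and 65.1% of all genes. When each mark had to cover 10% of the window the count was 4 in each type, 10.5% of the Hox genes against 11.3% of all genes in excitatory and 14.2% in inhibitory libraries, so the Hox share was then the lower. With peaks of a -log10 p of at least 3 the count was 0.

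Within the clusters the marks overlapped differently by type. Counting only bases covered in both libraries of a type, H3K27me3 held 13.4% of the clusters in excitatory and 12.9% in inhibitory libraries. H3K4me1 held 0.528 and 2.201%. Of these H3K4me1 bases, 65.6% also had H3K27me3 in excitatory libraries and 12.8% in inhibitory libraries, which is 1819 and 1477 bases. The inhibitory libraries thus had more H3K4me1 outside the recurrent H3K27me3, and a similar number of bases within it.

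H3K27ac and EGR1 were nearly absent from the clusters. H3K27ac covered 0.166 and 0.769% of the clusters in excitatory and 0.180 and 0% in inhibitory libraries, at most 0.178 times the coverage of the genome. There were 3, 12, 2 and 0 peaks, and none had a q-value under 0.05. No Hox gene had H3K27ac in all 4 libraries, and 16 of 38 had it in any, against 64.4 and 83.4% of all genes. Only 4 could be tested and limma called 0 of them, with 0 at an unadjusted p under 0.05, while it called 0.00% of all genes. Hoxa2 had the most even H3K27ac, 2.34 and 3.17% in excitatory and 0 and 0% in inhibitory libraries, and Hoxa4 the highest single value, 8.76% in the second excitatory library and 0 elsewhere. The highest members of the other clusters were Hoxb2, Hoxc6 and Hoxd12, with means over the 4 libraries of 0.829, 0.775 and 0.571%, and 22 of 38 genes were at 0 in every library. No Hox promoter carried H3K27ac in any library, where 35.0 to 48.3% of all promoters did.

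EGR1 peaks lay at only 3 sites in the 4 clusters, none of them at a printed promoter and none in HoxB or HoxD. Peaks numbered 2, 3, 1 and 2, and all had a q-value under 0.05, with folds of 3.25 to 4.50. A site between Hoxc9 and Hoxc8 (chr15:102987195-102987851) had a peak in all 4 libraries and lay outside every EGR1 window. The other recurrent site, at chr6:52221216-52222045, lay 1052 bases beyond the 3′ end of Hoxa9 and had a peak in both excitatory libraries and in the second inhibitory library. It coincided with the site where H3K4me3 and H3K4me1 peaks were present in all 4 libraries, and where the strongest H3K4me3 peak of the clusters stood, with a fold of 10.9 in the second inhibitory library. Hoxa9, a gene of posterior patterning and blood progenitors, was thus the only Hox gene with EGR1 in its window, at 2.80, 13.8, 0 and 4.66%. The values overlapped and limma did not call it (0 of 1 tested, and 0 with an unadjusted p under 0.05), with 0.00% of all genes called. In the genome 70.6% of genes had EGR1 in at least 1 library, and 31.3% had both excitatory libraries above both inhibitory ones, an order that the 37 Hox genes without EGR1 could not show.

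Of 18 Hox cofactors and upstream regulators, all 18 were tested for H3K4me1 and 1 was called, beside 4.06% of all genes tested. Meis2, which encodes a homeodomain partner of Hox proteins, had H3K4me1 of 19.2 and 26.1% in excitatory and 3.42 and 3.31% in inhibitory libraries (limma, adjusted p = 0.041). For H3K4me3, 16 of them were tested and 1 was called, higher in inhibitory libraries, beside 3.02% of all genes tested. There were 5 of 16 at an unadjusted p under 0.05, beside 17.6% of all genes tested. For H3K27me3, H3K27ac and EGR1, 17, 15 and 10 of them were tested and 0 were called, where 0 of all genes were called. At an unadjusted p under 0.05 there were 3, 3 and 2, beside 28.9, 18.2 and 14.7% of all genes tested. Of 16 Polycomb and trithorax genes, between 8 and 16 were tested per antibody, and 1 of 16 was called for H3K4me1, beside the same 4.06%. It was Kdm6a, which encodes a demethylase that removes methyl groups from H3K27, with H3K4me1 of 10.8 and 13.2% against 22.6 and 22.1% (limma, adjusted p = 0.049).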

How the data were processed

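Peak lists of 20 CUT&RUN libraries were analysed, 1 list per library, with groups and replicate numbers from the sample titles. Reads were processed by the authors with cutadapt 1.18, Trim Galore 0.5.0, Bowtie2 2.3.5, SAMtools 1.12 and Picard 2.25.0, and peaks were called with MACS2 2.2.5 on mm10, per the submitters' processing notes. Peak-calling settings, and whether a control was used, were not stated in these sources. Deposited by the authors, per peak, are an integer score, a fold enrichment (a ratio), a -log10 p-value and a -log10 q-value. They were used only to describe and filter peaks. Lists were broad for H3K27me3 and H3K4me1 and narrow for the others. In the EGR1 lists the peak names carry other replicate numbers than the labels, and the labels were followed.

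Coverage of gene windows was computed in Python 3.11.15 (numpy 2.4.6, pandas 2.3.3) with RefSeq gene positions of GRCm38.p6. After quantile normalization over the 4 libraries of an antibody, lmFit and eBayes with trend (limma 3.58.1, R 4.3.3) were run on genes with a covered base in at least 2 libraries. Adjusted p-values are two-sided, Benjamini-Hochberg over all genes tested, with a threshold of 0.05. The fit was run on simulated data with less noise than the libraries and large shifts, which checks the code and not how reliable the calls are. Overlapping peaks of the 4 libraries were merged into regions. Genes are named by a rule: those past the threshold, and the highest and lowest member of each cluster. Lists of cofactors and regulators, Polycomb and trithorax genes, other homeobox genes, neighbours and markers (excitatory, inhibitory, hindbrain and spinal cord, granule, astrocyte, oligodendrocyte, microglia) served for comparison, and some of their results are not reported here. The Hox genes, these lists and the tests were chosen with earlier results of these data known. Alternatives were peak strength, peak number, window, normalization, filter, replicate block and left-out libraries.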

Additional observations from a re-analysis of the deposited data

How the results depend on the processing

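The calls depended on the processing, and the cause was not tested except where it is named. The count of genes called for H3K4me3 over the genome (474) was 0 without quantile normalization, 0 without the coverage filter and 111 in whole-gene windows, and for H3K4me1 (732) it was 1211, 20 and, in end windows, 219. With peaks of a -log10 p of at least 3, or equal peak numbers, the H3K4me1 count was 0. Without the filter 16 genes were called for H3K27ac and 53 for EGR1, and 432 for EGR1 in whole-gene windows, where the reported count is 0 for both. Among Hox genes the 1 H3K4me3 call went to 0 without quantile normalization, without the filter, with equal peak numbers and at the -log10 p minimum. The 7 H3K4me1 calls went to 0 without the filter and with equal peak numbers, and to 3 in end windows. For H3K27ac 1 Hox gene, Hoxa3, was called without the filter. H3K27me3 gave 0 Hox calls under every alternative run, as did EGR1.

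Leaving out 1 library at a time gave 0 to 733 genes for H3K4me3, 0 to 507 for H3K4me1 and 0 to 925 for H3K27ac, and 0 to 2, 0 to 1 and 0 to 1 Hox genes (the last Hoxa2, without the second excitatory library). The lone library of a type was then assumed to vary like the other type. Hox genes with both H3K4me3 and H3K27me3 at an end (15 in each type) numbered 4 in each type at 10% of the window, 0 at the -log10 p minimum, and 20 to 33 in excitatory and 21 to 24 in inhibitory with 1 library, where fewer libraries have to hold both marks. At that minimum the cluster difference between types was 0.572 points for H3K4me3 (2.53 before), 0 for H3K4me1 (-3.90) and 0 for H3K27ac (0.377), and for EGR1 it was -0.0530 with equal peak numbers (0.143). The 10 genes with H3K4me3 higher in both excitatory libraries became 6 with equal peak numbers, an alternative chosen after seeing the data. The H3K4me1 difference at paralogs 9 to 13, also checked afterwards, was -8.34 points and ran from -11.57 to -5.11.

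The labels number the libraries of each type 1 and 2, and nothing says that a number marks a shared animal or day. Deviations of same-numbered libraries correlated at 0.0282 for H3K27me3, 0.0477 for H3K4me3, 0.0595 for H3K4me1, 0.0145 for H3K27ac and -0.0168 for EGR1. With the replicate number as a block, 1247 genes were called for H3K4me3, 0 for H3K4me1 and 1329 for H3K27ac. The block kept the Hoxd9 call for H3K4me3, and 0 Hox genes were called for H3K4me1. The depth of the libraries is unknown, and nearly all peaks in the clusters are weak.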

Other observations

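Markers of glia were measured in the same libraries. With H3K4me1, 4 astrocyte markers summed to 47.3 and 51.7 in excitatory and 41.0 and 36.0 in inhibitory libraries, 5 oligodendrocyte markers to 84.5 and 77.4 against 85.3 and 85.8, and 3 microglia markers to 33.6 and 33.6 against 32.9 and 30.3. With H3K4me3 the microglia markers Cx3cr1 and P2ry12 were at 0 in all 4 libraries, and Csf1r was covered in the second excitatory library alone. Limma called 0 astrocyte, oligodendrocyte and microglia markers for each antibody. For H3K27me3, H3K27ac and EGR1 it called 0 genes over the genome, so these markers could not be called. For H3K4me1, 4, 5 and 3 of them were tested, where 4.06% of all genes tested were called. For H3K4me3, 3, 4 and 0 were tested, where 3.02% were called. With so few tested, these counts do not show that glial content was equal.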
